A study of Mus musculus with 5 samples.

Results

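The collagen genes were taken as all gene symbols of the form Col, a number, a and a number, which selected 43 of the 34590 symbols in the count files. They encode the alpha chains of 11 fibrillar, 8 basement membrane, 6 beaded filament, 3 short chain network, 9 FACIT and 4 transmembrane collagens, and 2 further chains. Col15a1 and Col18a1, which are not type IV but lie in basement membranes, were counted with the basement membrane genes. The libraries came from E14.5 mouse cortex of wild-type genotype, taken by dissection from untreated brains of mixed strain background, with 3 libraries from medial cortex and 2 from lateral cortex. Whether the libraries came from separate embryos is not stated, so the p-values speak of the scatter among these 5 libraries, which may be technical. The design sets medial against lateral cortex, in a series whose title concerns Sonic hedgehog and cortical progenitor cells.

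Collagens are triple-helical proteins of the extracellular matrix, built from alpha chains that assemble in fixed combinations, so that several genes can serve a single protein. Fibrillar collagens form the banded fibres of connective tissue. In the embryonic brain such fibres are mainly a product of the meninges, the fibroblast-rich covering of the cortex. Type IV collagen is the network that holds together basement membranes, the sheets that surround each blood vessel and underlie the pia, where radial glial endfeet attach. FACIT collagens are fibril-associated chains with interrupted triple helices that decorate fibres without forming them.

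The lateral libraries were deeper. Gene reads totalled between 27406370 and 36460274 per medial library, against 56147129 to 66981952 per lateral library. Levels are CPM, read counts scaled to a common gene read total with TMM factors, and 3 reads, taken as the floor, came to between 0.0834 and 0.105 CPM in the medial and between 0.0456 and 0.0557 CPM in the lateral libraries. All 8 listed markers of cortical progenitors and neurons were detected in every library, for example Emx1 at 82.4, 108 and 116 CPM in the medial and 90.9 and 68.4 CPM in the lateral libraries. Their sum was lower in medial cortex (1485, 1795 and 1984 CPM, against 2611 and 2933 CPM). Its largest part was the neuronal gene Neurod6 (215, 403 and 540 CPM, against 924 and 1183 CPM). Of the 8 genes Tbr1 and Dcx passed as lower, where 5.1% of all genes tested did. The list was mixed, with 5 negative log2 ratios of medial over lateral cortex and 3 positive ones. The positive ones were Pax6 (0.31), Sox2 (0.64) and Emx1 (0.36), none of which passed. Medial library 1 stood apart. It held at least 2-fold more of 14 collagen genes than any other library, 12 of them among the 38 tested, whereas 2.29% of all genes tested did so. The main collagen results are therefore given with and without it. In bulk tissue, fewer cells of a type and less RNA per cell cannot be told apart.

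Collagen RNA summed over all 43 genes came to 1280, 722 and 646 CPM in medial libraries 1 to 3, against 591 and 516 CPM in lateral libraries 1 and 2. Every medial library was above both lateral ones. The fibrillar sum was 729, 343 and 292 CPM in the medial and 239 and 169 CPM in the lateral libraries, a ratio of means of 2.23, or 1.16 on the log2 scale. Without medial library 1 the log2 ratio of the fibrillar sums was 0.64. Single fibrillar genes then had 5 positive and 6 negative log2 ratios, the highest being Col5a2 (1.51) and Col2a1 (0.95). Col2a1 alone had 174 and 145 CPM in medial libraries 2 and 3, against 113 and 52.8 CPM in the lateral libraries. The basement membrane sum was 430, 321 and 305 CPM in the medial and 313 and 304 CPM in the lateral libraries. These groups overlapped, and the log2 ratio of 0.19 came to 0.02 without medial library 1. Within the basement membrane sum, single genes differed between regions in opposite directions.

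**Figure D1:**
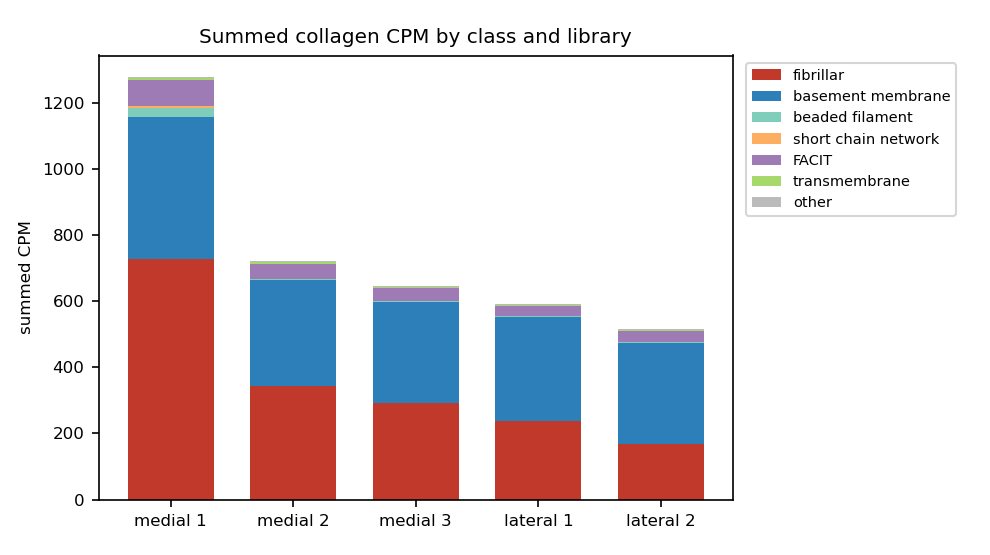
Summed CPM of the collagen genes in each library (x axis), stacked by class. The fibrillar part is 729 CPM in medial library 1 and 169 CPM in lateral library 2, while the basement membrane part stays between 304 and 430 CPM.

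Of the 38 collagen genes that passed the low-count filter, 4 were higher in medial cortex (Col5a2, Col18a1, Col16a1 and Col28a1) and 2 were lower (Col4a1 and Col4a2) in edgeR's quasi-likelihood test at an adjusted p of 0.05. Over all 16229 genes tested, 4.62% were higher and 5.1% lower, 9.72% in all. The count of lower collagen genes was close to that background and the count of higher ones above it, a difference that was not tested. Fold changes are medial over lateral and are given as log2 ratios from this fit. In 11 collagen genes all medial libraries lay above all lateral ones and in 6 all lay below, against 26.5% and 26.7% of all genes tested, so the count above was near the background and the count below was under it. The median log2 ratio of the tested collagen genes was 0.88, beside 0.01 for all genes tested. It was 1.07 for the 11 fibrillar genes, of which 1 was called, and −0.02 for the 8 basement membrane genes, of which 1 was higher and 2 were lower. The medians over all tested collagen genes and over the fibrillar genes rested on medial library 1. Without it the median was −0.08 over 37 tested collagen genes, 18 of them positive and 19 negative, −0.08 over the fibrillar and −0.03 over the basement membrane genes. The filter removed Col8a1, Col6a6, Col6a4, Col13a1 and Col10a1. Without medial library 1, 6 collagen genes were higher and 3 lower (background 6.27% and 6.94%). These included all 6 of the first calls and added Col4a6 and Col9a2 as higher and Col14a1 as lower. Calls were lost without each of the other libraries. Without medial library 3, Col5a2, Col18a1 and Col16a1 passed, and without medial library 2, lateral library 1 or lateral library 2 0 collagen genes passed. Over all genes 0, 18 and 0 passed in these 3 fits, so the loss was general. An unadjusted p under 0.05 was reached there by 16 of 39, 10 of 40 and 8 of 40 collagen genes, against 24.5%, 24.4% and 14.8% of all genes tested. Over all 5 left-out libraries the log2 ratio stayed between 1.51 and 1.99 for Col5a2, 0.82 and 1.15 for Col18a1, 1.21 and 1.88 for Col16a1, and 1.66 and 2.20 for Col28a1. Medial library 2 and lateral library 1 share a tag in their deposited names, as do medial library 3 and lateral library 2. Within these pairs the log2 ratios of CPM were 1.60 and 1.41 for Col5a2, 1.49 and 1.38 for Col16a1, 2.13 and 1.22 for Col28a1, −0.50 and −0.64 for Col4a1 and −0.52 and −0.62 for Col4a2. The regions did not overlap for these genes, so any such pair had to lie in the direction of the call.

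**Figure D2:**
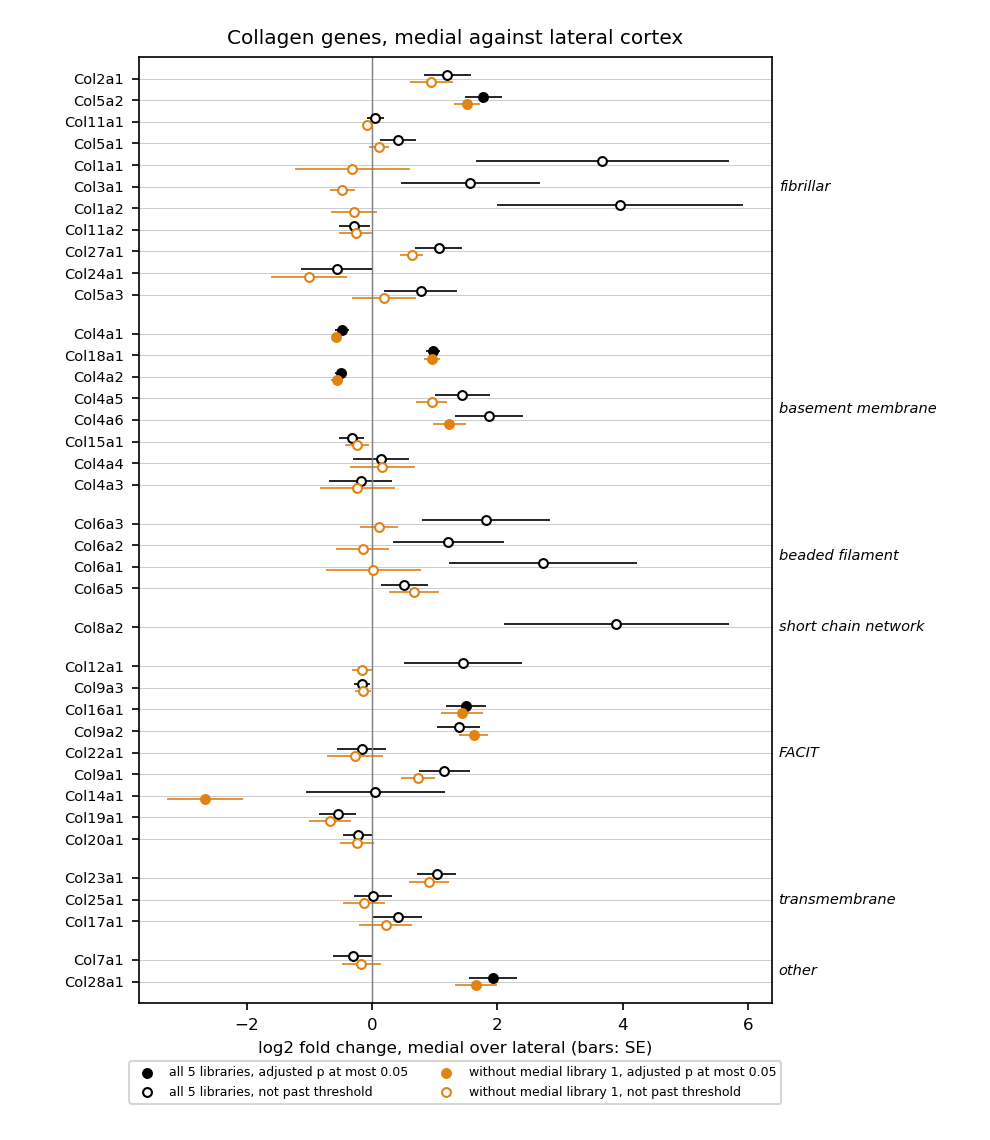
Log2 fold change of medial over lateral cortex with its SE for each tested collagen gene, by class, from all 5 libraries (black) and without medial library 1 (orange). Filled points passed an adjusted p of 0.05. Col1a1, Col1a2, Col3a1 and Col12a1 lie to the right of 0 with all libraries and to the left of 0 without medial library 1, and Col8a2 was not tested without it.

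Type IV collagen genes lie in head-to-head pairs, and 2 of these pairs had log2 ratios of opposite sign. The chains Col4a1 and Col4a2, which together form the type IV trimer found in nearly every basement membrane including those of vessels, were lower in medial cortex. The pair Col4a5 and Col4a6, whose trimer is found in a narrower set of basement membranes, had more RNA in every medial library than in either lateral one. Neither gene passed the threshold in edgeR with all libraries and no block, but both passed with DESeq2. The promoters of these 4 genes are shown because the genes of a pair had like ratios while the pairs had opposite ones. They are RefSeq sequences of the build GRCm38.p6, which differs from the mm9 build of the files, and each runs from 250 bases before to 50 bases after the annotated start. RefSeq's table held 35 of the 43 collagen genes. Positions are chr8:11312777-11313076 (minus strand) for Col4a1, chr8:11312555-11312854 (plus strand) for Col4a2, chrX:141475169-141475468 (plus strand) for Col4a5 and chrX:141474027-141474326 (minus strand) for Col4a6. Capitals mark 3 motifs on either strand, the CCAAT box, the core of the GC box (GGGCGG) and the core of the TATA box (TATAAA).
Col4a1: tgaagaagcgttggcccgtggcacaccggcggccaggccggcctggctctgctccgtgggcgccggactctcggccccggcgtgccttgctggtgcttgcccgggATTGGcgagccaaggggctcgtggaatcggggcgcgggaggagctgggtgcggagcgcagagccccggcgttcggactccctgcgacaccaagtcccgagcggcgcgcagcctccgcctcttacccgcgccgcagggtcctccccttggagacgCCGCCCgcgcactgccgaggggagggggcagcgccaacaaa
Col4a2: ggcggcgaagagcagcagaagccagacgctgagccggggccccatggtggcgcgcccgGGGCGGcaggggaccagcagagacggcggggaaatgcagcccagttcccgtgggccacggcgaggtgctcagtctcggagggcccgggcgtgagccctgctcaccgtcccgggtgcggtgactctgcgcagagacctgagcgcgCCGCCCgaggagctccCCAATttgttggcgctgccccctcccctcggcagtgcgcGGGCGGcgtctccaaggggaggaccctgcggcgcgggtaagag
Col4a5: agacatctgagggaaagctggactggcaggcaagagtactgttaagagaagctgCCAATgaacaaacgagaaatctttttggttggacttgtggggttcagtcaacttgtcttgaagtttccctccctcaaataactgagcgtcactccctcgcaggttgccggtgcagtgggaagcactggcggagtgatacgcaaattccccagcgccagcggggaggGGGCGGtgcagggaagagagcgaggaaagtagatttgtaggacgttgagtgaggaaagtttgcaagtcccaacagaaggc
Col4a6: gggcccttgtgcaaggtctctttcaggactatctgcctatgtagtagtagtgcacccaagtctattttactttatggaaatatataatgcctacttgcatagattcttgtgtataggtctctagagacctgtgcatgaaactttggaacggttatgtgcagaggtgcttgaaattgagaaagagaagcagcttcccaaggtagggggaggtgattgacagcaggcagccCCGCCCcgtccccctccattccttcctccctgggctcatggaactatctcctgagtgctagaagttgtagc

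The annotated starts of Col4a1 and Col4a2 are 21 bases apart on opposite strands and their windows share 78 bases, while those of Col4a5 and Col4a6 are 1343 bases apart. The Col4a1 and Col4a2 windows are 74% and 73.7% G or C, and those of Col4a5 and Col4a6 52.7% and 48.3%. CCAAT occurs once each in the windows of Col4a1, Col4a2 and Col4a5 and not in that of Col4a6. GGGCGG occurs in all 4 windows, with 3 matches in Col4a2. The Col4a1 match and the last Col4a2 match are the same site, within the 78 bases that their windows share. TATAAA occurs in none of them. Of 32851 promoter windows in the table, 37.4% hold CCAAT, 35.7% GGGCGG and 13.6% TATAAA. These matches describe the letters and were not tested as binding sites.

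Col4a1 had 119, 100.5 and 97.5 CPM in medial libraries 1 to 3, against 142 and 152 CPM in lateral libraries 1 and 2. All 3 medial libraries were below both lateral ones. Its log2 ratio was −0.48 (SE 0.11, adjusted p = 0.0475 in edgeR). Col4a2 had 58.9, 51.1 and 51.9 CPM in the medial and 73.2 and 79.5 CPM in the lateral libraries, again without overlap, with a log2 ratio of −0.50 (SE 0.10, adjusted p = 0.0375). The ratio of Col4a1 to Col4a2 reads was nearly constant, between 1.88 and 2.02 in the medial and between 1.91 and 1.94 in the lateral libraries. Both calls were close to the threshold. They ended with library size alone as scaling, at adjusted p-values of 0.0860 and 0.0592, and without medial library 2, medial library 3, lateral library 1 or lateral library 2, where the adjusted p lay between 0.0708 and 0.301 and the log2 ratio between −0.42 and −0.56.

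All 12 listed endothelial markers had negative log2 ratios, like this pair, with a median of −0.54. In 11 of them every medial library was below both lateral ones, against 26.7% of all genes tested. Of the 12 markers, 2 passed as lower, Cdh5 (−0.58) and Ets1 (−0.61), where 5.1% of all genes tested did. The summed level of the 12 markers was 137, 119 and 122 CPM in the medial and 162 and 182 CPM in the lateral libraries. The mural list, for pericytes and smooth muscle, had 4 positive and 5 negative values among 9 tested and a median of −0.16. Of the 9, 0 passed in edgeR and 4 had an unadjusted p under 0.05, against 32.2% of all genes tested. The part of vessel content in the type IV result was not tested.

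Col4a5 had 96.04, 48.4 and 39.3 CPM in medial libraries 1 to 3 and 28.1 and 16.99 CPM in the lateral libraries. Its log2 ratio was 1.44 (SE 0.44, adjusted p = 0.0845). Col4a6 had 53.7, 21.5 and 18.7 CPM in the medial and 10.8 and 6.28 CPM in the lateral libraries. Its log2 ratio was 1.87 (SE 0.54, adjusted p = 0.0744). Neither gene overlapped between regions, and medial library 1 was highest for both. Without that library the log2 ratios were 0.96 (adjusted p = 0.0593) and 1.23 (adjusted p = 0.0385), so that Col4a6 passed. Both also passed with DESeq2 (adjusted p = 0.00342 and 0.00113). In edgeR they passed with a block by replicate number (adjusted p = 0.0327 and 0.0362) and with a block by the tag in the deposited names (2.37e-05 and 2.51e-05). These fits called 10.7%, 2.80% and 16.2% of all genes tested as higher, against 4.62% in the main fit. The labels give no pairing by number, and what the tag marks is not stated. Each block leaves a medial library without a partner and fewer residual degrees of freedom than the main fit.

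Read ratios within a library do not depend on scaling. Reads of Col4a5 and Col4a6 together came to 0.843, 0.461 and 0.388 times those of Col4a1 and Col4a2 in medial libraries 1 to 3, against 0.181 and 0.1004 times in lateral libraries 1 and 2. The lowest medial ratio was above the highest lateral one. Col4a3 and Col4a4, the remaining pair and known for the filtration barrier of the kidney, stayed between 0.105 and 0.640 CPM in the medial and between 0.274 and 0.687 CPM in the lateral libraries, and their groups overlapped.

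Col18a1 encodes a basement membrane proteoglycan core whose C-terminal fragment is endostatin. It had 98.0, 95.2 and 92.1 CPM in medial libraries 1 to 3 and 53.7 and 42.9 CPM in the lateral libraries. The medial values were close together and all above the lateral ones, with a log2 ratio of 0.98 (SE 0.12, adjusted p = 0.0265). Within the library pairs that share a tag in their deposited names, the log2 ratio was 0.83 for medial library 2 over lateral library 1 and 1.10 for medial library 3 over lateral library 2. Both had to be positive, since the regions did not overlap. Its relative Col15a1, found in vessel and muscle basement membranes, had 3.33 to 4.56 CPM in the medial and 4.64 to 4.91 CPM in the lateral libraries (log2 ratio −0.32, SE 0.20, adjusted p = 0.312).

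**Figure D3:**
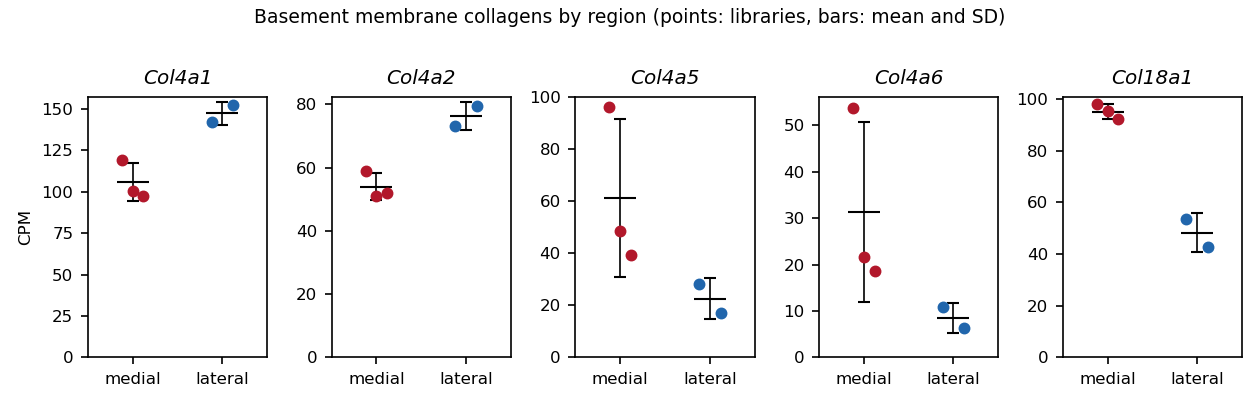
CPM of 5 basement membrane collagens in each library (points), with the mean and SD of 3 medial and 2 lateral libraries; each y axis starts at 0 and has its own range. Medial points lie below lateral ones for Col4a1 and Col4a2 and above them for Col4a5, Col4a6 and Col18a1.

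Among the fibrillar collagens Col5a2 was the gene that passed, of 11 tested. It encodes a chain of type V, which is incorporated into type I fibres and limits their diameter. Col5a2 had 102, 75.0 and 52.3 CPM in medial libraries 1 to 3 and 24.8 and 19.7 CPM in the lateral libraries. All medial libraries were above the lateral ones, with a log2 ratio of 1.78 (SE 0.30, adjusted p = 0.0318) and of 1.51 without medial library 1 (adjusted p = 0.0193). Its partner chain Col5a1 averaged 29.8 CPM ± 9.89 (SD, n = 3) in the medial and 22.3 ± 4.74 (SD, n = 2) in the lateral libraries, with overlap and a log2 ratio of 0.41 (SE 0.28, adjusted p = 0.360). The third type V chain, Col5a3, stayed at or below 0.729 CPM in every library.

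Col2a1, the fibrillar collagen best known from cartilage, held the most collagen reads of any gene in each medial library. It had 254, 174 and 145 CPM in the medial and 113 and 52.8 CPM in the lateral libraries, a log2 ratio of 1.20 (SE 0.38, adjusted p = 0.0914). The regions did not overlap, but the gap between the lateral libraries was wider than that between lateral library 1 and medial library 3. It passed with DESeq2 (adjusted p = 0.00608) and had a log2 ratio of 0.95 without medial library 1 (adjusted p = 0.125). Cartilage markers were scarce. The 7 listed, among them Acan and Comp, summed to 7.70, 3.602 and 2.53 CPM in the medial and 0.289 and 0.669 CPM in the lateral libraries, and most of this was Lect1 in the medial libraries (4.58, 3.08 and 1.72 CPM), against 0 and 0.0186 CPM in the lateral ones. Of the 2 cartilage markers tested, Lect1, with 1 lateral read in all, passed as higher (log2 ratio 8.09, adjusted p = 0.0252 in edgeR). Acan did not pass (2.01, adjusted p = 0.0865). The part of cartilage markers in the Col2a1 values was not tested. Col11a1, whose chain joins type II fibres in cartilage, overlapped between the regions, with 61.0, 47.2 and 47.2 CPM in the medial and 51.4 and 48.5 CPM in the lateral libraries (log2 ratio 0.05, SE 0.14, adjusted p = 0.824). Col11a2 had 5.92 to 8.74 CPM in the medial and 6.95 to 10.4 CPM in the lateral libraries. Of the minor fibrillar genes, Col27a1 had 9.92, 4.90 and 4.67 CPM in the medial and 3.30 and 2.86 CPM in the lateral libraries, a log2 ratio of 1.07 (adjusted p = 0.115), and Col24a1 stayed at or below 1.34 CPM.

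Type I and type III collagen, the main fibres of fibroblasts, were far higher in medial library 1 than in the other 4 libraries. Col1a1 had 97.2, 0.874 and 3.17 CPM in medial libraries 1 to 3 and 0.745 and 4.62 CPM in the lateral libraries. Col1a2, the other chain of the type I trimer, had 88.4, 1.19 and 1.95 CPM in the medial and 1.51 and 2.43 CPM in the lateral libraries. Medial library 1 was 21.0-fold and 36.4-fold above the next library for these genes. Over all libraries their log2 ratios of 3.68 (SE 2.02) and 3.96 (SE 1.97) had adjusted p-values of 0.263 and 0.223. Without that library the values were −0.32 (adjusted p = 0.858) and −0.29 (adjusted p = 0.645).

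Col3a1, the type III chain, is the ligand that the adhesion receptor Gpr56 (Adgrg1) binds at the pial surface of the cortex. It had 66.3, 5.88 and 6.79 CPM in medial libraries 1 to 3 and 7.48 and 10.2 CPM in the lateral libraries. Outside medial library 1 the medial values were below both lateral ones, and the log2 ratio was 1.57 (SE 1.11, adjusted p = 0.378) with that library and −0.47 (adjusted p = 0.180) without it. Gpr56, named here for this role, had 173, 213 and 231 CPM in the medial and 249 and 236 CPM in the lateral libraries (log2 ratio −0.24, SE 0.13, adjusted p = 0.261). Col3a1 and Col5a2 are neighbours on mouse chromosome 1 in RefSeq's annotation, and of this pair Col5a2 passed.

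Col6a1, Col6a2 and Col6a3 encode the chains of type VI collagen, which forms beaded filaments around fibroblasts, muscle and vessels. Together they had 24.1, 2.80 and 2.89 CPM in medial libraries 1 to 3 and 2.01 and 3.77 CPM in the lateral libraries. Again medial library 1 alone was high. The log2 ratios were 2.73 for Col6a1, 1.22 for Col6a2 and 1.82 for Col6a3 (adjusted p = 0.264, 0.388 and 0.274), and 0.02, −0.15 and 0.11 without that library (adjusted p = 0.990, 0.853 and 0.855). Col6a5 stayed at or below 0.560 CPM. Among the short chain collagens, Col8a2 had 158 reads in medial library 1 and between 3 and 14 reads in the others, and Col8a1 had 83 reads there and between 1 and 9 elsewhere. Col10a1, a marker of hypertrophic cartilage, had 3 reads in all.

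**Figure D4:**
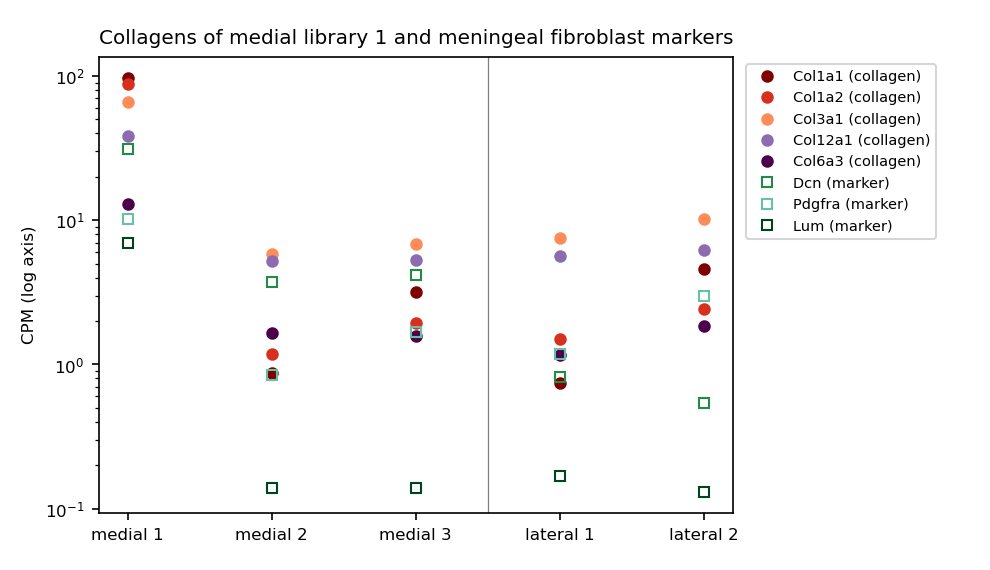
CPM on a log axis of 5 collagen genes (filled circles) and 3 markers of meningeal fibroblasts (open squares) in each library (x axis). All 8 are highest in medial library 1, from 6.90 CPM for Lum to 97.2 CPM for Col1a1, and the other libraries lie at or below 10.2 CPM. The genes shown are from those at least 2-fold higher there than in any other library. Crabp2 and Foxc1, markers that were not, are left out.

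Most markers of meningeal fibroblasts other than collagens were also highest in medial library 1. Of the 13 listed, 9 exceeded every other library at least 2-fold in medial library 1, where 2.29% of all genes tested did. The 9 included Dcn (31.1 CPM, against 4.20 or less), Pdgfra (10.1 against 2.99 or less) and Lum (6.90 against 0.167 or less). Foxc2, Twist1, Lum and Aldh1a2, also among the 9, failed the low-count filter. The list summed to 71.1, 25.0 and 28.3 CPM in medial libraries 1 to 3 and to 13.2 and 13.2 CPM in the lateral libraries. Crabp2 went the other way within the medial libraries, with 6.66, 16.3 and 17.1 CPM. The other 12 markers summed to 64.4, 8.78 and 11.2 CPM in the medial and 6.57 and 9.29 CPM in the lateral libraries. Outside medial library 1 these sums overlapped between the regions. Of the 8 markers tested, 3 (Dcn, Islr and Crabp2) had every medial library above both lateral ones, against 26.5% of all genes tested. In 0 was every medial library below both. Dcn had 3.71 and 4.20 CPM in medial libraries 2 and 3, against 0.821 and 0.539 CPM in the lateral libraries. Foxc1, a defining transcription factor of these cells, had 4.06, 2.48 and 2.53 CPM in the medial and 3.06 and 3.40 CPM in the lateral libraries, and Aldh1a2 was at 0 in medial library 2. Between regions 0 of the 8 tested passed in edgeR, with 3 at an unadjusted p under 0.05, against 32.2% of all genes tested. The 8 microglia markers summed to 58.4, 28.9 and 32.4 CPM in the medial and 21.97 and 29.9 CPM in the lateral libraries, and the 7 choroid plexus markers to 18.3, 9.16 and 15.4 CPM and to 2.54 and 12.6 CPM. Both sums were highest in medial library 1. In medial library 1 most of the choroid plexus sum was Otx2 (12.8 CPM), and Ttr was at its lowest there (0.659 CPM). Much of the choroid plexus sum was Ttr in medial library 3 (8.87 CPM) and lateral library 2 (10.4 CPM). Of 5 tested choroid plexus markers, 4 had positive log2 ratios and 1, Ttr, a negative one. In 3 of them every medial library was above both lateral ones, against 26.5% of all genes tested. Otx2 passed as higher (5.24, adjusted p = 0.0380 in edgeR), where 4.62% of all genes tested did. The part of all these cell types in the collagen values was not tested. Among libraries other than medial library 1, Col1a1 was higher in medial library 3 and lateral library 2, which share a tag in their deposited names, than in medial library 2 and lateral library 1, which share another.

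FACIT collagens were mixed. Col16a1 had 14.47, 16.2 and 9.37 CPM in medial libraries 1 to 3 and 5.75 and 3.603 CPM in the lateral libraries, all medial above lateral, with a log2 ratio of 1.50 (SE 0.31, adjusted p = 0.0438). Medial library 1 was not the highest here. Col12a1, which coats type I fibres, had 38.3, 5.21 and 5.31 CPM in the medial and 5.63 and 6.18 CPM in the lateral libraries, a log2 ratio of 1.45 (adjusted p = 0.337) that came to −0.16 without medial library 1 (adjusted p = 0.531). Col14a1, a close relative with the same partner fibre, had 117, 6 and 8 reads in the medial and 60 and 103 reads in the lateral libraries. In CPM these were 4.06, 0.210 and 0.223, against 0.912 and 1.91, so that the lateral values lay between medial library 1 and the others. Its log2 ratio was 0.05 (adjusted p = 0.980) with all libraries and −2.66 (adjusted p = 0.0460) without medial library 1, where it was lower in medial cortex.

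The 3 chains of type IX collagen, which covers type II fibres in cartilage, had ratios of both signs. Col9a2 had 4.34, 8.85 and 7.18 CPM in medial libraries 1 to 3 and 3.03 and 2.14 CPM in the lateral libraries, without overlap (log2 ratio 1.39, SE 0.34, adjusted p = 0.0562). It passed without medial library 1, where its value was 1.62 (adjusted p = 0.0211). Col9a1 had 2.95, 1.68 and 1.25 CPM in the medial and 0.897 and 0.836 CPM in the lateral libraries (1.15, SE 0.41, adjusted p = 0.115). Col9a3 had 10.3 to 11.4 CPM in the medial and 11.7 to 12.3 CPM in the lateral libraries (−0.16, SE 0.12, adjusted p = 0.418). The FACIT genes Col19a1, Col20a1 and Col22a1 had values from 0.595 to 2.88 CPM in the medial and from 0.867 to 3.97 CPM in the lateral libraries. Of them 0 passed in edgeR, with 0 at an unadjusted p under 0.05, against 32.2% of all genes tested.

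Col28a1, which encodes a chain with von Willebrand factor A domains, was higher in medial cortex at a low level. It had 58, 40 and 39 reads in medial libraries 1 to 3 and 21 and 25 reads in the deeper lateral libraries. In CPM these were 2.01, 1.40 and 1.08, against 0.319 and 0.464, a log2 ratio of 1.93 (SE 0.39, adjusted p = 0.0402). Col7a1, the anchoring fibril collagen of skin, had 1.28 to 2.31 CPM in the medial and 1.82 to 2.20 CPM in the lateral libraries (−0.31, adjusted p = 0.531). Of the transmembrane collagens, Col23a1 had 3.54, 2.87 and 2.64 CPM in the medial and 1.06 and 1.91 CPM in the lateral libraries, without overlap (1.03, SE 0.31, adjusted p = 0.0836). Col25a1 and Col17a1 lay between 0.280 and 1.11 CPM in the medial and between 0.380 and 1.10 CPM in the lateral libraries, and Col13a1 had 21 reads in all. Col6a6 and Col6a4, with 32 and 26 reads over all libraries, were too scarce to test.

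**Figure D5:**
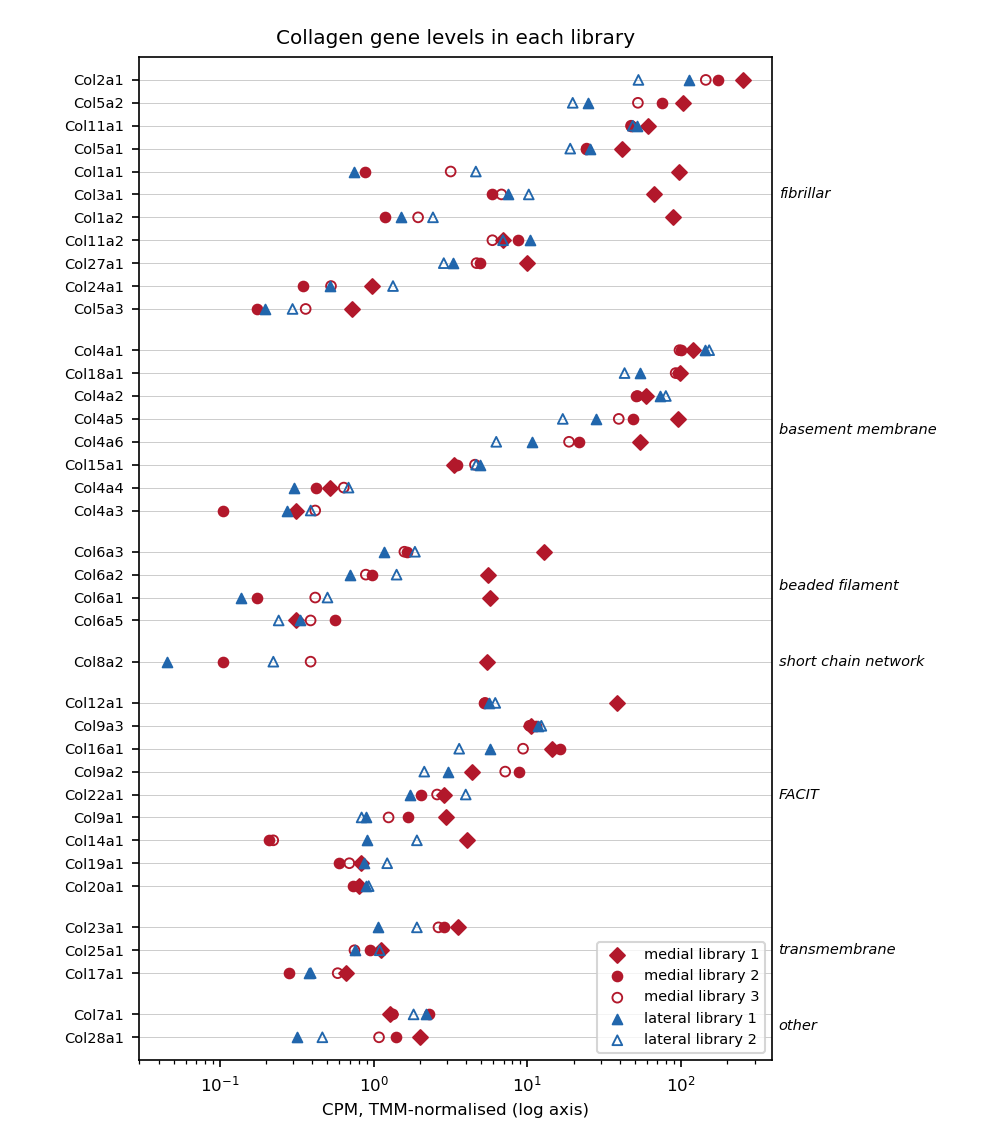
CPM on a log axis of the 38 tested collagen genes in each library, by class; red marks medial and blue lateral libraries. Medial library 1 (diamonds) lies far to the right for Col1a1, Col1a2, Col3a1, Col6a1 to Col6a3, Col8a2 and Col12a1. It lies close to the other medial libraries for Col18a1 and between them for Col16a1.

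Levels of different genes were compared per kilobase of merged exons in GENCODE M21, an annotation of GRCm38 and not that of the files. Col2a1 had the highest mean level in the medial libraries (37.4 CPM per kb), before Col4a1 (15.965), Col18a1 (14.0), Col5a2 (11.5), Col4a5 (9.37) and Col4a2 (8.37). Col4a5 stood above Col4a2 through medial library 1, since the mean of medial libraries 2 and 3 was 6.71 CPM per kb for Col4a5 and 7.99 for Col4a2. In the lateral libraries Col4a1 was first (22.2 CPM per kb), before Col2a1 (16.2), Col4a2 (11.8), Col18a1 (7.11), Col11a1 (6.51) and Col9a3 (3.94). Type I chains reached 5.69 and 5.71 CPM per kb as medial means through medial library 1, against 0.453 and 0.368 in the lateral libraries. RefSeq's order of protein-coding genes places 8 pairs of collagen genes next to each other, of which Col4a1 with Col4a2 was the pair where both genes passed.

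Genes that make, process, bind or accompany collagen were set beside the collagens. Over all 16229 genes tested, 4.62% were higher and 5.1% lower, with a median log2 ratio of 0.01. Of 20 tested biosynthesis genes, 4 were higher and 0 lower, and the median log2 ratio was 0.20. They included Serpinh1, the collagen-specific chaperone of the endoplasmic reticulum, with 196, 183 and 203 CPM in the medial and 123 and 119 CPM in the lateral libraries (0.68, SE 0.08, adjusted p = 0.0263). They also included the lysyl hydroxylase Plod2 (0.88, SE 0.11, adjusted p = 0.0272) and Leprel4, a member of the prolyl 3-hydroxylase family (0.97, SE 0.22, adjusted p = 0.0480). The fourth was Fkbp14, a prolyl isomerase (0.67, SE 0.15, adjusted p = 0.0480), named after its value was seen. Medial library 1 lay between the other medial libraries for Serpinh1.

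Of 12 tested genes for procollagen processing and crosslinking, 4 were higher and 1 lower (4.62% and 5.1% of all genes tested). Loxl1, a lysyl oxidase that crosslinks collagen and elastin, had 89.9, 70.1 and 60.0 CPM in the medial and 4.76 and 2.19 CPM in the lateral libraries, a log2 ratio of 4.38 (SE 0.38, adjusted p = 0.0231). The lowest medial library was far above both lateral ones. Tll1, a tolloid-like protease that removes procollagen C-propeptides, had 3.50, 1.78 and 1.61 CPM against 0.213 and 0.223 CPM (3.37, SE 0.52, adjusted p = 0.0313). Adamts3, a procollagen N-propeptidase, was lower in medial cortex, with 15.2, 23.7 and 31.7 CPM against 88.8 and 130 CPM (−2.21, SE 0.31, adjusted p = 0.0296). The other higher genes, named after their values were seen, were the lysyl oxidases Lox and Loxl2. Lox had 11.5, 2.83 and 2.14 CPM in the medial libraries and 0.0608 and 0.0371 CPM in the lateral ones, and Loxl2 had 11.4, 10.7 and 10.7 CPM against 7.37 and 6.98 CPM.

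Of 17 tested basement membrane partners, 2 were higher and 0 lower (4.62% and 5.1% of all genes tested). They were Hspg2, the proteoglycan perlecan, with 84.5, 84.7 and 66.1 CPM in the medial and 43.1 and 28.2 CPM in the lateral libraries (1.14, SE 0.21, adjusted p = 0.0369), and the laminin chain Lama5 with 29.0, 28.7 and 31.4 CPM against 18.2 and 12.6 CPM (0.95, SE 0.17, adjusted p = 0.0354). Of 10 tested collagen receptors 0 passed in edgeR, with 2 at an unadjusted p under 0.05, against 32.2% of all genes tested. The receptor tyrosine kinase Ddr1, with the highest mean CPM of the list over all 5 libraries but below Gpr56 in the lateral ones, had 253, 256 and 254 CPM in the medial and 246 and 204 CPM in the lateral libraries (0.18, SE 0.10, adjusted p = 0.263).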

How the data were processed

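The files are 1 table of raw read counts per gene symbol for each library, deposited by the authors without normalisation. The submitters' processing notes name mm9, BWA, STAR and HTSeq, without versions or roles. Per the labels' protocols the polyA protocol was unstranded, so reads of overlapping or antisense genes cannot be told apart. HTSeq's 5 classes of unassigned reads, 23.1% to 28.7% of each file, were left out. Counts were scaled with TMM and tested over all genes with edgeR 4.0.16 (R 4.3.3) by the quasi-likelihood test in its newer form, with group as the only term, 3 residual degrees of freedom, filterByExpr (count 10, total 15) and Benjamini-Hochberg adjustment at 0.05. Log2 ratios have medial cortex on top, and their SE was taken from the F statistic. Scripts were tested on simulated data. Replicate libraries differed by more than sampling noise (chi-square over degrees of freedom from 24.6 to 81.2). No intervals are given, and floors cover counting error only.

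Named genes were every collagen gene that passed, the 3 most abundant fibrillar and basement membrane genes, the most abundant of each other class and up to 3 that passed per partner list. Other genes were named after their values were seen. Members and lists were chosen with earlier results of these data known. Alternatives used DESeq2 1.42.0, limma 3.58.1 (voom), other scalings, filters, thinning, blocks and left-out libraries.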

Additional observations from a re-analysis of the deposited data

How the results depend on the processing

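Counts of collagen genes called depended on single libraries. Leaving out each library in turn gave 0 to 6 higher and 0 to 3 lower genes, 0 to 1 fibrillar genes higher, and 0 to 2 basement membrane genes higher and 0 to 2 lower. No collagen gene passed in edgeR without medial library 2, lateral library 1 or lateral library 2, where 0, 18 and 0 of all genes passed. With DESeq2, 11 were higher and 2 lower (background 10.7% and 11%), with 3 fibrillar and 3 basement membrane genes higher. With a block by the tag in the deposited names, which leaves medial library 1 without a partner, 10 were higher and 5 lower (background 16.2% and 16.8%), with 3 fibrillar and 3 basement membrane genes higher. Col3a1 was lower there (−0.48, adjusted p = 0.00969). The replicate block by number gave 6 higher and 0 lower (background 2.80% and 3.83%) and shared 2 of the 6 calls, Col5a2 and Col18a1, while Col16a1 (adjusted p = 0.0543), Col28a1 (0.0736), Col4a1 (0.115) and Col4a2 (0.0996) were lost. It had 2 fibrillar and 3 basement membrane genes higher and 0 lower. The labels give no pairing by number, and deviations of same-numbered libraries correlated at 0.07 and −0.39. With 2 lateral libraries, whose deviations mirror each other, the values for shared tags (0.39 and 0.41) are not independent of these. Upper-quartile scaling and no low-count filter left 1 lower gene, in the basement membrane class, and library size alone left 0; it moved the median of all genes to 0.08. After thinning to the smallest library, 4 were higher and 2 lower. Causes of these changes were not tested.

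Of 35 genes followed over the alternatives (the genes of the naming rule, Gpr56 and 12 further collagen genes), 460 values kept direction and call, 59 lost and 20 gained a call, and 17 turned. Without medial library 1 they were −0.079 for Col11a1, −0.16 for Col12a1, −0.32 for Col1a1, −0.29 for Col1a2, −0.47 for Col3a1, −0.15 for Col6a2 and −2.66 for Col14a1, while over the other left-out libraries these genes reached up to 0.12, 1.88, 5.49, 4.52, 2.04, 1.78 and 0.65. With the block by tag they were −0.079, −0.17, −0.36, −0.33, −0.48, −0.17 and −2.72, and −0.11 for Col6a1. Col14a1 was also −1.16 with limma-voom and −0.41 without lateral library 1. Of the 13 other tested collagen genes, 6 turned sign at least once, Col25a1 in 6 of 16 alternatives, Col4a4 in 4 of 15, Col4a3 in 2 of 15, and Col11a2, Col22a1 and Col24a1 in 1 of 16. The log2 ratio of summed levels lay between 0.64 and 1.43 (fibrillar) and 0.02 and 0.28 (basement membrane) over left-out libraries, lowest without medial library 1. Ratios within pairs of libraries sharing a tag and the marker sum without Crabp2 were added after seeing the data.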
